A study of Solanum lycopersicum with 27 samples.

Results

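WRKY transcription factors were followed in tomato leaves as watering was withheld, through a set of 10 loci among the 34688 of the count table. The loci were listed by identifier and not by level, although earlier results of these data were known when the members were chosen. A row was present for 9 of the 10, and these 9 are described here, while Solyc08g067340 was not analysed here. The set is listed as WRKY factors of stress and senescence, with Solyc09g014990 named WRKY33. Neither the table nor the reference pairs the identifiers with names, so the family assignment rests on that list, the other members are called by their identifiers, and no sequence, coordinate or individual role is given for them.

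All plants were wild type Solanum lycopersicum of the cultivar Moneymaker and were 50 days old when treatment began. Plants labelled control were watered to capacity every other day, and plants labelled water deficit received no water at all. A single leaflet of a mature leaf was sampled at 4, 5, 8 and 10 days, and a whole developing leaf, called young here, at 10 days. Each of these 10 groups held 3 libraries, except mature day 8 in both arms and mature day 10 control, which held 2. The labels do not say whether libraries of a group came from separate plants, so the p-values measure the spread between libraries, which may be partly technical.

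WRKY proteins are plant transcription factors named after a conserved stretch of their DNA-binding domain, which is folded around a zinc ion and recognises a promoter element called the W box. Many of their genes are induced by wounding, pathogens, drought or salicylic acid, several act in abscisic acid signalling, and in Arabidopsis some members are among the known regulators of leaf senescence. The Arabidopsis gene called WRKY33 is known as a target of stress-activated MAP kinases and is required for defence against necrotrophic fungi.

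Library totals ran from 14725924 to 19642202 counts, and all 9 members passed the filter on low counts. One library went against its label. Replicate 1 of the mature day 10 group labelled deficit correlated on log2 CPM (counts scaled to a common library size, with TMM factors) at r = 0.994 and 0.993 with the control libraries of that day. With the 2 other libraries of the group, replicates 2 and 3, r was 0.888 and 0.884. At the members it lay at 0.673 to 1.71 times the control mean and at 0.0707 to 0.453 times the mean of replicates 2 and 3. One spread per locus was estimated over all 27 libraries, so this library also widened the error of every other comparison. The median biological coefficient of variation of the 9 members was 0.305 with it and 0.0800 without it, against 0.119 and 0.0755 for all tested loci. Results are therefore given with all libraries and without replicate 1, and every direction is that of the labels. In bulk leaf tissue, fewer cells that express a gene and less RNA per cell cannot be told apart. No check of leaf marker genes was made, since none could be tied to an identifier.

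By the late collections, all 9 members were higher in leaves labelled deficit, which held for young leaf and for mature leaf at days 8 and 10. At mature day 4 none was called, and at mature day 5 only 5 were. The CPM of the 9 members summed to 495.6 to 507.2 in the mature day 4 control libraries and to 453.8 to 466.6 in the deficit ones. At day 8 the sum had dropped to 95.2 and 100.1 CPM under control, while it was 423.8 and 398.9 CPM under deficit. Young leaf at day 10 gave 196.8 to 216.0 CPM under control and 790.7 to 898.8 CPM under deficit. The lowest deficit library there held over 3 times the CPM of the highest control library. Taken singly, 9 of 9 members had all deficit libraries above all control libraries at mature day 8, as had 43.9% of all tested loci, and 9 of 9 in young leaf, as had 38.9% of loci.

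Counts of called members were read against all tested loci. Calls are from edgeR's quasi-likelihood test with an adjusted p below 0.05, by the Benjamini-Hochberg method over all loci. At mature day 8, 9 of 9 members were called higher under deficit, where 34.7% of all loci were called higher (37.7% without replicate 1, again 9 members). In young leaf 9 of 9 were called higher, against 36.2% of all loci (38.0% without replicate 1, again 9). At mature day 10 the number was again 9, against 22.7% of loci, and 9 against 32.6% without replicate 1. The mature day 10 count depended on the fit: with only the libraries of that comparison, replicate 1 included, 0 members were called (adjusted p = 0.490 for each of the 9). No share of loci is given for this fit or for those named next, so these counts are not read as results about the members. Without control replicate 2, 0 were called too, with adjusted p from 0.0517 to 0.179, and without control replicate 3 there were 6 calls. At mature day 5, 5 members were called higher against 14.6% of loci, and 6 were called higher and 1 lower without replicate 1, where 21.8% of loci were called higher. Leaving out any 1 of the 3 control libraries of day 5, or deficit replicate 2 or 3, gave 3 calls. At mature day 4, 0 members were called by edgeR, where 11.8% of loci were called in either direction. DESeq2 called 0 too, and 1 member had an unadjusted p below 0.05 in edgeR. No share of loci is given for these counts. Without replicate 1, 3 members were called at day 4, 1 higher and 2 lower, against 31.0% of loci.

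The sizes followed the same course. The median log2 fold change of the 9 members, deficit relative to control, in mature leaf was -0.07 (day 4), 0.63 (day 5), 3.06 (day 8) and 2.27 (day 10), and the young leaf median was 2.20. Over all tested loci the medians of the same comparisons were 0.0030, -0.0010, 0.02, 0.02 and 0.0070. Without replicate 1 the members' median at mature day 10 was 2.73, with a range of 1.19 to 3.67.

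**Figure D1:**
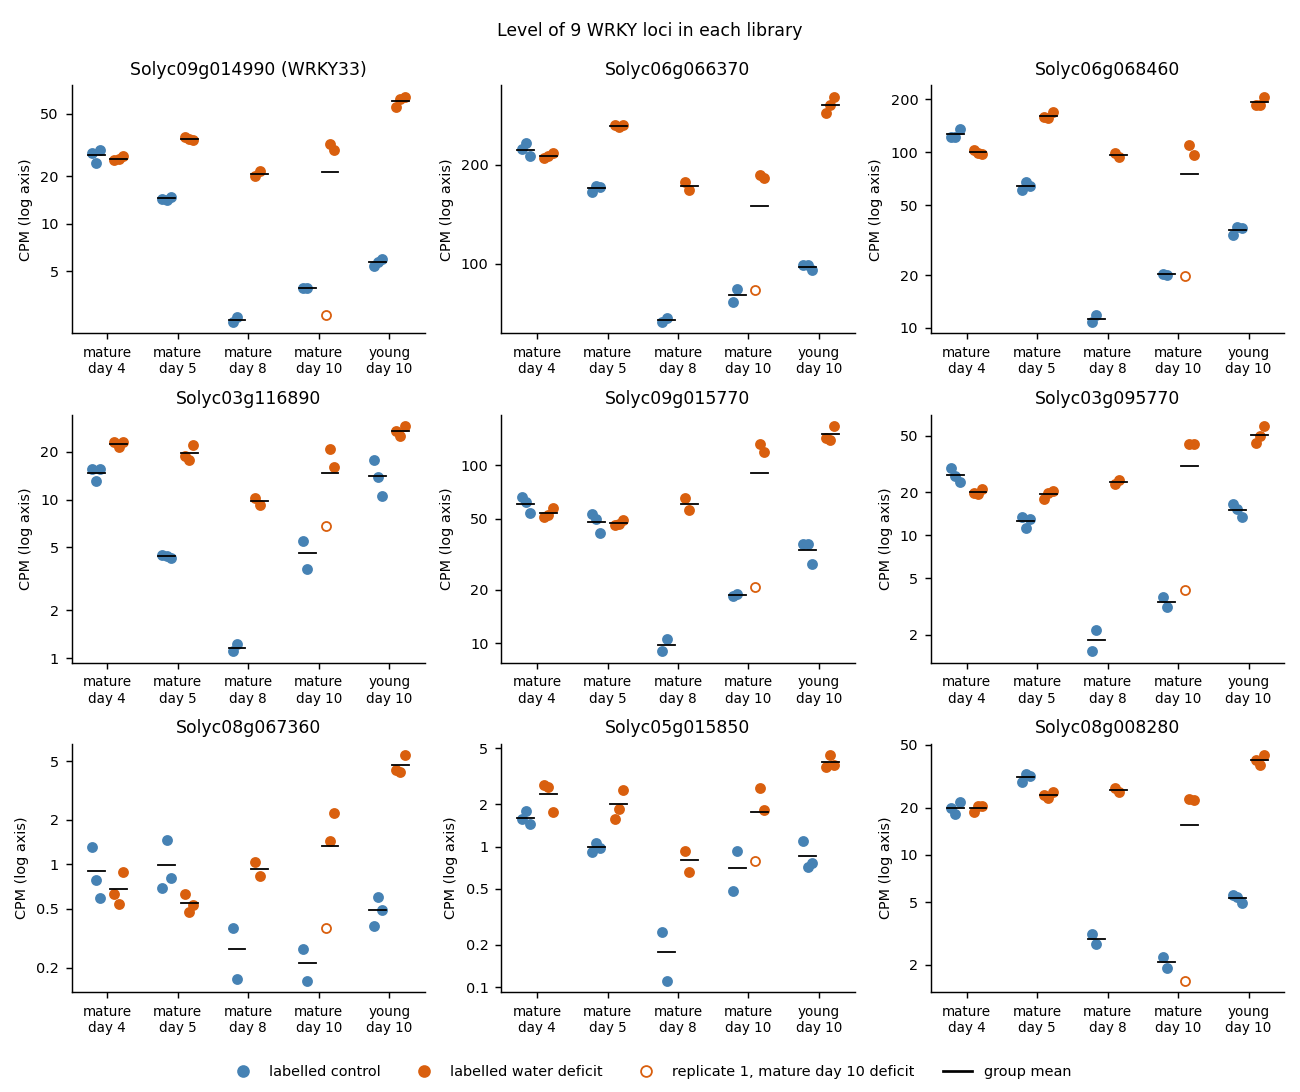
Level of each of the 9 WRKY loci in every library, in CPM on a log axis, by collection and arm; points are libraries, black lines group means, and the open point is replicate 1 of mature day 10 deficit. At mature day 8 and in young leaf all deficit points lie above all control points in all 9 panels (43.9% and 38.9% of all tested loci separated this way), and the open point lies at 0.673 to 1.71 times the control mean of mature day 10.

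Solyc09g014990, the locus given as WRKY33, showed little difference between the arms at first and a wide one later. Under control its mature leaf level was 28.3, 24.2 and 29.5 CPM at day 4, 14.5, 14.3 and 14.8 at day 5, 2.39 and 2.56 at day 8, and 3.92 and 3.91 at day 10. Under deficit it was 25.4, 25.7 and 26.8 CPM at day 4, 35.6, 34.5 and 34.3 at day 5, 20.0 and 21.6 at day 8, and 31.9 and 29.3 in replicates 2 and 3 of day 10, with 2.63 in replicate 1. The arms overlapped at day 4 only, apart from replicate 1 of day 10, which lay below both control libraries. Young leaf held 5.42, 5.75 and 6.01 CPM under control and 55.3, 62.3 and 64.0 CPM under deficit. WRKY33 was 8.38-fold higher under deficit at mature day 8 (log2 fold change 3.07, SE 0.63, adjusted p = 0.000339) and 10.6-fold higher in young leaf (3.40, SE 0.48, adjusted p = 5.57e-06). The young leaf difference was the largest log2 fold change of the 9 members in that comparison. At mature day 10 it was 2.44 (SE 0.56, adjusted p = 0.00485), and 2.96 (SE 0.12) without replicate 1. The day 5 difference of 1.26 (SE 0.44, adjusted p = 0.0374) was lost when any 1 of the 6 libraries of day 5 was left out, with adjusted p from 0.0715 to 0.0976, and without a filter on low counts, with 0.0539. In the fit without replicate 1 the day 5 difference was 1.25 (SE 0.081, adjusted p = 6.72e-14).

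Solyc06g066370 drew 1087 to 5547 counts per library and had the smallest fold change of the 9 at mature days 8 and 10. Its mature leaf level under control was 223, 232 and 213 CPM at day 4, 166, 173 and 172 at day 5, 66.6 and 68.8 at day 8, and 76.9 and 84.0 at day 10. With water withheld it was 209, 212 and 218 CPM at day 4, 264, 259.8 and 264 at day 5, 177 and 167 at day 8, and 83.3, 186 and 182 at day 10. All deficit libraries exceeded all control libraries at days 5 and 8, and replicate 1 of day 10 fell between the 2 control libraries. In young leaf the levels were 99.1, 99.4 and 95.8 CPM under control and 286, 304 and 322 CPM under deficit. The log2 fold change was 0.63 (SE 0.17, adjusted p = 0.00866) at day 5, 1.34 (SE 0.21, adjusted p = 2.22e-05) at day 8, and the young leaf value was 1.63 (SE 0.17, adjusted p = 1.67e-07). It was 0.90 (SE 0.19, adjusted p = 0.00348) at mature day 10, and 1.19 (SE 0.072) without replicate 1.

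Solyc06g068460 followed WRKY33 closely in its course. The control arm of mature leaf held 122, 122 and 136 CPM at day 4, 60.9, 67.7 and 64.6 at day 5, 10.8 and 11.8 at day 8, and 20.3 and 20.1 at day 10. The deficit arm held 103, 99.7 and 97.3 CPM at day 4, 158, 156 and 169 at day 5, 99.6 and 93.9 at day 8, and 19.8, 110.1 and 95.9 at day 10. At day 4 all deficit libraries lay below all control libraries, and at days 5 and 8 all lay above. The day 4 difference of -0.34 (SE 0.32, adjusted p = 0.538) passed the test without replicate 1 (-0.35, SE 0.068, adjusted p = 0.000198). The day 5 difference was 1.32 (SE 0.33, adjusted p = 0.00566) and that of day 8 was 3.10 (SE 0.44, adjusted p = 1.23e-05). In young leaf the level was 34.0, 37.7 and 37.1 CPM under control and 187, 185 and 207 CPM under deficit, so that the arms differed by 2.41 on the log2 scale (SE 0.34, adjusted p = 6.11e-06).

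Solyc03g116890 had the largest difference of the 9 at day 5. Control libraries of mature leaf gave 15.7, 13.2 and 15.6 CPM at day 4, 4.48, 4.42 and 4.28 at day 5, 1.10 and 1.22 at day 8, and 5.53 and 3.63 at day 10. Deficit libraries gave 23.1, 21.5 and 23.2 CPM at day 4, 19.0, 17.7 and 22.1 at day 5, 10.2 and 9.28 at day 8, and 6.79, 21.0 and 16.2 at day 10. The arms did not overlap on any of the 4 days, replicate 1 of day 10 included. At day 4 the difference was 0.61 (SE 0.25, adjusted p = 0.119), which passed the test without replicate 1 (0.60, SE 0.13, adjusted p = 0.00101). It was 2.15 (SE 0.27, adjusted p = 9.81e-06) at day 5 and 3.06 (SE 0.40, adjusted p = 4.08e-06) at day 8. Young leaf held 17.9, 14.0 and 10.5 CPM under control and 27.1, 25.2 and 29.1 CPM under deficit. That was the smallest young leaf difference of the 9, at 0.94 (SE 0.25, adjusted p = 0.00231).

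Solyc05g015850 was scarce, with 2 to 81 counts per library, and its values carry wide counting error. It had 1.57, 1.79 and 1.45 CPM in mature control leaf at day 4, 0.907, 1.06 and 0.984 at day 5, 0.245 and 0.111 at day 8, and 0.483 and 0.922 at day 10. The deficit levels were 2.73, 2.64 and 1.77 CPM at day 4, 1.57, 1.86 and 2.54 at day 5, 0.935 and 0.662 at day 8, and 0.790, 2.63 and 1.82 at day 10. The arms were apart at days 5 and 8 and overlapped at day 4 by a single pair of libraries. Young leaf gave 1.09, 0.712 and 0.765 CPM under control against 3.67, 4.45 and 3.77 CPM under deficit. The log2 fold change was 1.005 (SE 0.33, adjusted p = 0.0293) at day 5, 2.15 (SE 0.60, adjusted p = 0.00364) at day 8, and the young leaf value was 2.20 (SE 0.33, adjusted p = 7.42e-06). The day 5 call was lost without any 1 of the 3 control libraries or without deficit replicate 2 or 3, with adjusted p from 0.0504 to 0.129. The day 8 call was lost without control replicate 2 (adjusted p = 0.0501).

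The remaining 4 members were not called at day 5 with all libraries. Solyc03g095770 had the largest difference of the 9 at mature days 8 and 10. In the control arm of mature leaf it stood at 29.8, 26.0 and 23.8 CPM at day 4, 13.5, 11.3 and 13.0 at day 5, 1.53 and 2.17 at day 8, and 3.70 and 3.15 at day 10. In the deficit arm it stood at 19.9, 19.5 and 21.1 CPM at day 4, 17.9, 19.9 and 20.4 at day 5, 23.0 and 24.3 at day 8, and 4.11, 43.9 and 43.6 at day 10. All deficit libraries lay below control at day 4 and above it at days 5, 8 and 10. The log2 fold change was -0.39 (SE 0.44, adjusted p = 0.608) at day 4 and 0.62 (SE 0.45, adjusted p = 0.329) at day 5. Without replicate 1 both passed the test, at -0.40 (SE 0.10, adjusted p = 0.00337) and 0.61 (SE 0.11, adjusted p = 3.2e-05). At day 8 it was 3.67 (SE 0.67, adjusted p = 0.000118). Young leaf had 16.6, 15.2 and 13.3 CPM under control and 44.1, 49.5 and 58.4 CPM under deficit (1.75, SE 0.45, adjusted p = 0.00191).

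Solyc09g015770 differed between the arms only at the late collections. Mature control leaf had 66.0, 62.4 and 54.2 CPM at day 4, 53.2, 50.0 and 41.5 at day 5, 9.01 and 10.6 at day 8, and 18.4 and 18.9 at day 10. Mature deficit leaf had 51.4, 52.9 and 57.5 CPM at day 4, 46.2, 47.1 and 49.1 at day 5, 65.6 and 56.1 at day 8, and 20.7, 131 and 118 at day 10. The arms overlapped at days 4 and 5 and not at day 8. The day 5 log2 fold change was -0.02 (SE 0.36, adjusted p = 0.975), and it was 0.037 without control replicate 1 of day 5. At day 8 it was 2.63 (SE 0.49, adjusted p = 0.000144). Young leaf gave 36.0, 36.2 and 27.8 CPM under control and 143, 139 and 166 CPM under deficit, at 2.17 (SE 0.38, adjusted p = 5.58e-05).

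Solyc08g008280 was lower under deficit at day 5, which passed the test without replicate 1, and higher under deficit later. Its control levels in mature leaf were 19.9, 18.1 and 21.8 CPM at day 4, 29.0, 32.8 and 31.7 at day 5, 3.13 and 2.72 at day 8, and 2.25 and 1.90 at day 10. Its deficit levels were 18.6, 20.5 and 20.6 CPM at day 4, 24.0, 23.0 and 25.0 at day 5, 26.6 and 25.2 at day 8, and 1.58, 22.5 and 22.2 at day 10. All control libraries exceeded all deficit libraries at day 5, and the order was the opposite at day 8. The day 5 difference was -0.38 (SE 0.44, adjusted p = 0.563) with all libraries and -0.39 (SE 0.080, adjusted p = 0.000157) without replicate 1. At day 8 it was 3.15 (SE 0.63, adjusted p = 0.000267). Young leaf held 5.53, 5.37 and 4.97 CPM under control and 39.9, 37.1 and 42.9 CPM under deficit (2.92, SE 0.48, adjusted p = 3.25e-05).

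Solyc08g067360 was scarce too, with 3 to 93 counts per library. Mature control libraries had 1.31, 0.788 and 0.592 CPM at day 4, 0.694, 1.46 and 0.810 at day 5, 0.368 and 0.167 at day 8, and 0.268 and 0.163 at day 10. Mature deficit libraries had 0.630, 0.540 and 0.885 CPM at day 4, 0.628, 0.478 and 0.532 at day 5, 1.04 and 0.828 at day 8, and 0.369, 1.43 and 2.23 at day 10. The arms overlapped at day 4, lay apart with control higher at day 5, and lay apart with deficit higher at day 8. The day 5 difference of -0.84 (SE 0.47, adjusted p = 0.194) did not pass the test, also not without replicate 1 (adjusted p = 0.0502). The day 8 difference of 1.80 (SE 0.66, adjusted p = 0.0202) was lost without control replicate 2 of that day (adjusted p = 0.150) or deficit replicate 1 (0.0828). In young leaf it had 0.383, 0.602 and 0.492 CPM under control and 4.35, 4.23 and 5.47 CPM under deficit, a 9.39-fold difference (log2 3.23, SE 0.43, adjusted p = 2.21e-06).

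At mature day 10 the remaining members are given with all libraries first and without replicate 1 after that, as log2 fold changes. Solyc03g095770 stood at 3.15 (SE 0.59, adjusted p = 0.00340) and 3.67 (SE 0.15), and Solyc08g008280 at 2.88 (SE 0.62, adjusted p = 0.00365) and 3.42 (SE 0.14). For Solyc08g067360 the values were 2.57 (SE 0.61, adjusted p = 0.00511) and 3.01 (SE 0.47), and for Solyc09g015770 2.27 (SE 0.45, adjusted p = 0.00340) and 2.73 (SE 0.13). Solyc06g068460 had 1.89 (SE 0.40, adjusted p = 0.00340) and 2.34 (SE 0.093), and Solyc03g116890 1.68 (SE 0.31, adjusted p = 0.00340) and 2.02 (SE 0.19). Solyc05g015850 had 1.31 (SE 0.40, adjusted p = 0.0187) and 1.68 (SE 0.33), and its call was lost without deficit replicate 2 (adjusted p = 0.148) or 3 (0.0551). With replicate 1, all deficit libraries of mature day 10 lay above both control libraries for 4 of the 9 members and for 15.2% of all tested loci, and without it for 9 members and 40.3% of loci.

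**Figure D2:**
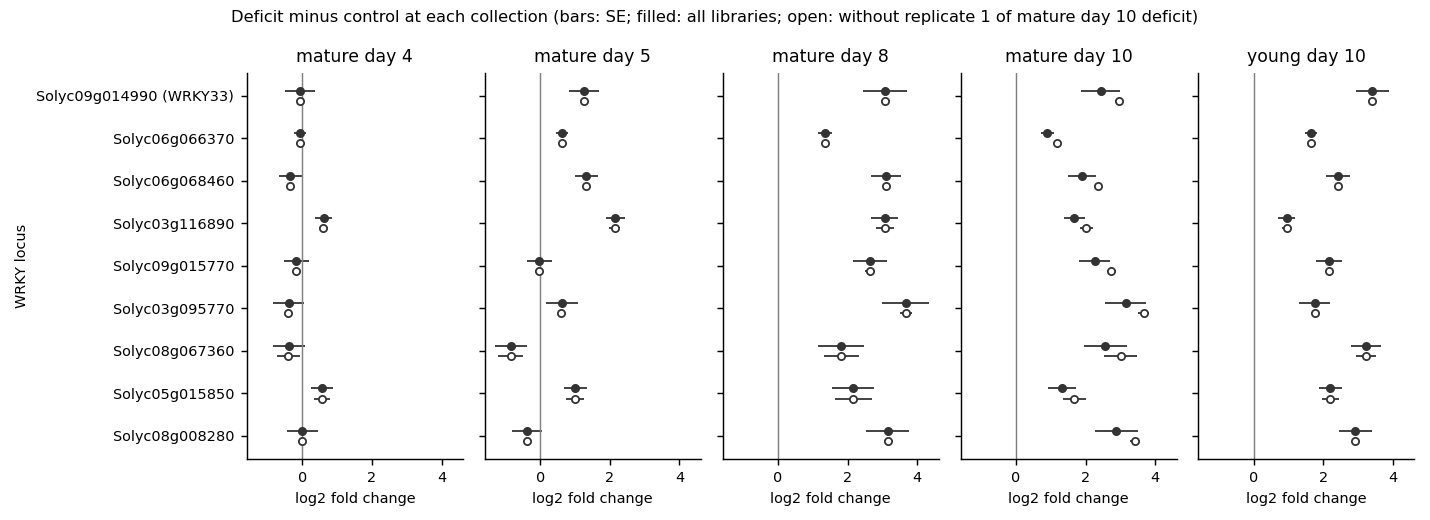
Log2 fold change of each WRKY locus, deficit relative to control, at the 5 collections, with bars of 1 SE; filled points use all libraries and open points are from the fit without replicate 1 of mature day 10 deficit. Filled points lie between -0.84 and 2.15 at mature days 4 and 5 and between 0.90 and 3.67 at the 3 late collections, and the bars of the open points are shorter for all 9 loci.

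The second question was in which arm the members moved over the days of mature leaf. Over the 4 days of the control arm 9 of 9 changed, against 75.1% of all tested loci (81.2% without replicate 1, again 9), so that change over days in this arm was the rule among loci. Under deficit 4 changed, Solyc06g066370, Solyc06g068460, Solyc03g116890 and Solyc05g015850, against 49.3% of loci. Without replicate 1 all 9 changed under deficit, against 64.6% of loci, and 0 did when the fit held the 4 deficit groups alone, replicate 1 included. Without deficit replicate 1 or 2 of day 8 the number was 2 or 1. For the fit of the deficit groups alone and those without a day 8 library, no share of loci is given. Their counts are therefore not read as results about the members. Each day was a separate collection, so day and batch cannot be told apart within an arm.

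The step from day 5 to day 8 under control held the widest shift. All 9 members fell there, with log2 fold changes from -3.41 for Solyc08g008280 to -1.33 for Solyc06g066370, where 25.6% of loci fell (31.8% without replicate 1, again 9 members). From day 4 to day 5 under control, Solyc03g116890 (-1.75, SE 0.27, adjusted p = 0.000137) and Solyc06g068460 (-0.97, SE 0.33, adjusted p = 0.0430) fell, against 10.2% of loci. Leaving out any 1 of the 6 libraries of this step left 1 call. Without replicate 1, 7 members fell and Solyc08g008280 rose by 0.65 (SE 0.081, adjusted p = 9.93e-08), where 19.9% of loci fell. From day 8 to day 10 under control Solyc03g116890 (1.97, SE 0.41, adjusted p = 0.00205) and Solyc05g015850 (1.96, SE 0.61, adjusted p = 0.0242) rose, against 11.3% of loci. Leaving out either day 8 control library or day 10 control replicate 3 left 1 call. Without replicate 1, 7 members rose in this step, against 19.5% of loci. Solyc08g067360 and Solyc08g008280 had log2 values of -0.26 and -0.47 and were not called. Under deficit the successive steps gave 0, 3 and 0 calls, against 2042, 2285 and 3458 of 19087 loci. The 3 calls were falls from day 5 to day 8, in Solyc06g066370 (-0.61), Solyc03g116890 (-1.005) and Solyc05g015850 (-1.30). Without replicate 1, 4 members rose under deficit from day 4 to 5, against 2408 of 19072 loci. From day 5 to 8, 5 fell and 2 rose, against 2910 and 3111 loci, and from day 8 to 10, 5 rose, against 2035.

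As a share of the day 4 mean of the same arm, control leaf at day 8 held 6.98% of its Solyc03g095770 level, 9.05% of WRKY33 and 30.4% of Solyc06g066370, with a median of 11.1% over the 9 members. Deficit leaf at day 8 held 33.6% of its day 4 level for Solyc05g015850, 43.1% for Solyc03g116890, 80.1% for WRKY33 and 136% for Solyc08g067360, with a median of 96.9%. The 2 deficit libraries of day 10 other than replicate 1 held 231% of the day 4 mean for Solyc09g015770, 217% for Solyc03g095770 and 267% for Solyc08g067360. For the other 6 members that share was 82.2% to 118%.

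**Figure D3:**
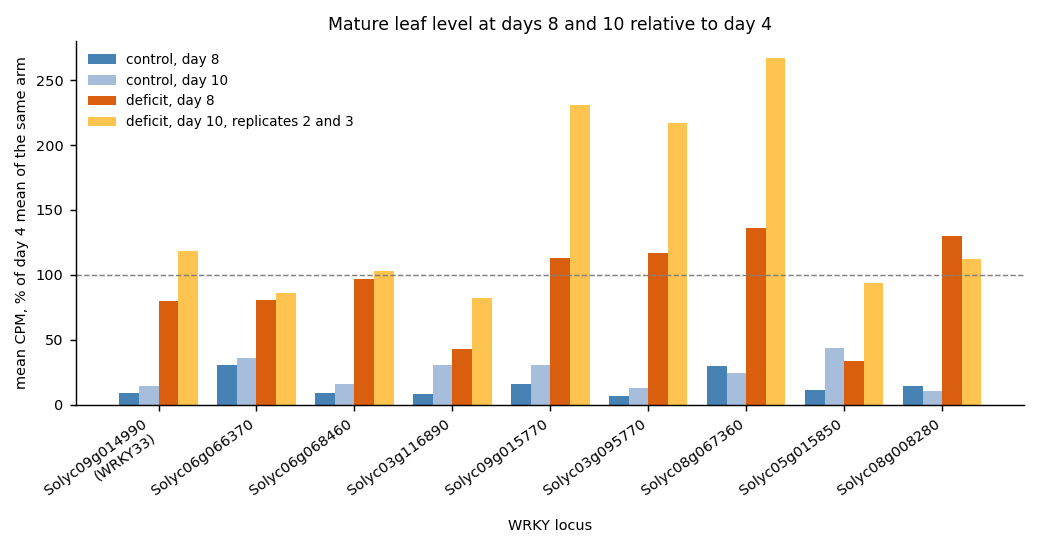
Mean CPM of each WRKY locus in mature leaf at days 8 and 10 as a percentage of the day 4 mean of the same arm, as ratios of group means without error bars; the dashed line marks 100% and the day 10 deficit bar leaves out replicate 1. Control bars lie between 6.98% and 43.8%, and deficit bars between 33.6% and 267%.

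The change of the arms difference with day was tested directly. The interaction of treatment with day was called for 8 of 9 members, against 57.0% of all loci, with adjusted p from 0.000284 for Solyc06g068460 to 0.00507 for WRKY33. Solyc05g015850 was not called (adjusted p = 0.191), and was called without replicate 1 (adjusted p = 0.0242), when 9 of 9 members were called against 73.6% of loci. For day 8 against day 4 alone, the arms difference changed for 8 of 9 members, against 57.9% of loci, and for 9 of 9 without replicate 1, against 66.7%. Solyc05g015850, with 1.58 (SE 0.68, adjusted p = 0.0532) on the log2 scale, was again the member not called with all libraries.

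Leaf age was compared at day 10. Young samples were whole developing leaves and mature samples single leaflets, so leaf age and the part sampled cannot be told apart. Under control, Solyc03g095770 (log2 2.13, SE 0.58, adjusted p = 0.0155) and Solyc03g116890 (1.62, SE 0.31, adjusted p = 0.000934) were higher in young than in mature leaf, where 9.54% of loci were called higher. Leaving out either mature control library left 1 call. Without replicate 1, 7 members were called higher, against 17.8% of loci, and Solyc05g015850 and Solyc08g067360, the 2 scarce ones, were not. Under deficit 7 members were called higher in young leaf, against 19.7% of loci, and the same 7 without replicate 1, against 21.2%. The 2 not called were Solyc03g095770 and Solyc09g015770, at 0.20 (SE 0.11, adjusted p = 0.138) and 0.25 (SE 0.10, adjusted p = 0.0601) without replicate 1. For the 7 called, the young excess under deficit was 0.52 to 1.37 without replicate 1. A fit of these 2 groups alone, replicate 1 included, called 0. For that fit no share of loci is given, so the count is not read as a result about the members.

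The next comparison asked whether the arms difference itself depended on leaf age, which again cannot be told apart from the part sampled. With all libraries the interaction of treatment and leaf age called 0 members in edgeR's quasi-likelihood test, where 15.0% of loci were called. DESeq2 called 1, Solyc06g066370, and 1 member had an unadjusted p below 0.05 in edgeR. No share of loci is given for these counts. Leaving out deficit replicate 2 or 3 of mature day 10 gave 1 call each, again Solyc06g066370 (adjusted p = 0.0114 and 0.0148). Without replicate 1, 6 members were called against 21.6% of loci. The arms difference was smaller in young leaf for Solyc03g095770 (-1.92, SE 0.19, adjusted p = 6.96e-09), Solyc03g116890 (-1.09, SE 0.24, adjusted p = 0.00125), Solyc09g015770 (-0.57, SE 0.16, adjusted p = 0.0110) and Solyc08g008280 (-0.51, SE 0.18, adjusted p = 0.0419). It was larger in young leaf for Solyc06g066370 (0.44, SE 0.092, adjusted p = 0.000665) and WRKY33 (0.43, SE 0.16, adjusted p = 0.0443). With all libraries the value of Solyc08g008280 had the other sign, at 0.03 (SE 0.84, adjusted p = 0.990).

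**Figure D4:**
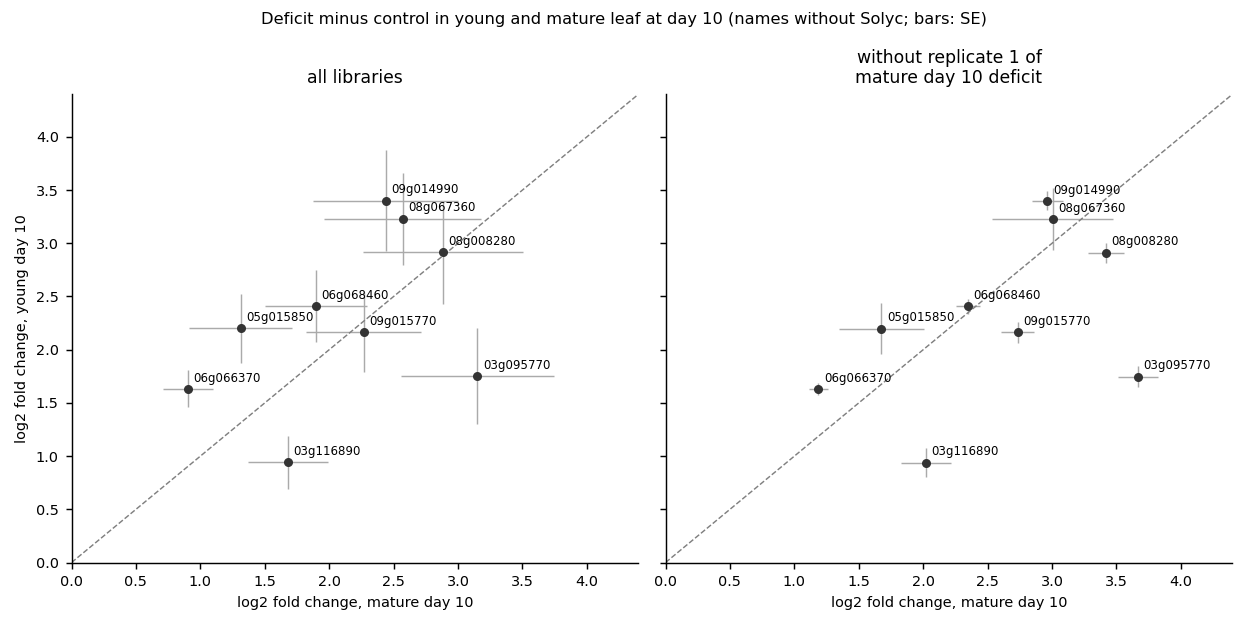
Log2 fold change of each WRKY locus, deficit relative to control, in young leaf (vertical axis) against mature leaf (horizontal axis) at day 10, with bars of 1 SE, for all libraries (left) and without replicate 1 of the mature deficit group (right); the dashed line marks equal change. Without replicate 1, Solyc03g095770 (3.67 in mature and 1.75 in young leaf) and Solyc03g116890 (2.02 and 0.94) lie farthest below the line.

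Ordering the 10 group means placed young deficit leaf highest for all 9 members. Its 3 libraries lay above every other library for 9 of 9, and for 7.59% of all tested loci. The lowest mean was mature control leaf of day 8 for 7 members and of day 10 for Solyc08g067360 and Solyc08g008280. For Solyc08g067360 the libraries of that group overlapped those of mature control at day 8. No share over all loci is given for the lowest group. With replicate 1 included, the order for WRKY33 from the lowest was mature control at day 8, mature control at day 10, young control, mature control at day 5, then mature deficit at days 8, 10 and 4, mature control at day 4, mature deficit at day 5 and young deficit. Its 3 overlapping pairs of neighbours all lay among the 4 groups from mature deficit at day 8 to mature control at day 4. Without replicate 1 the mean of mature deficit at day 10 was 30.6 CPM in place of 21.3, which placed it above mature control at day 4 (27.3 CPM) and below mature deficit at day 5 (34.8 CPM), and 2 pairs overlapped. The scarce members Solyc08g067360 and Solyc05g015850 had 7 and 6 overlapping pairs of 9 in both cases, against 3 to 5 for the others with replicate 1 and 1 to 4 without it.

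Likeness to WRKY33 was described by Pearson's r of mean log2 CPM over the 10 groups, which share scaling and, within a group, libraries. The means held all libraries, replicate 1 of mature day 10 deficit included, and no r without it is given. Solyc06g066370 (r = 0.993) and Solyc06g068460 (r = 0.989) ranked at places 2 and 11 among all tested loci. The other 6 members had r from 0.787 for Solyc08g067360 to 0.921 for Solyc08g008280. Such values were common, since 7.93% of loci reached at least 0.9. The nearest loci outside the set were Solyc08g014570.3 (r = 0.994) and Solyc04g009440.3 (r = 0.993), which carry no name here. Over the 36 pairs of members r ran from 0.606 to 0.993, with a median of 0.880.

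The mix within the set also shifted. These shares are of counts not corrected for transcript length, so they are read across libraries and not between members. Solyc06g066370 made up 42.9% to 46.4% of the members' summed CPM in mature control leaf at day 4 and 68.7% and 70.0% at day 8, against 41.7% and 41.9% under deficit at day 8. WRKY33 made up 2.51% and 2.55% of the sum in mature control leaf at day 8, 2.51% to 3.05% in young control leaf and 7.00% to 7.68% in young deficit leaf.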

How the data were processed

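Polyadenylated RNA of 27 leaf libraries was sequenced, per the labels' protocols. The authors deposited whole-number read counts per locus, which differ in total between libraries. DESeq2 is named in the submitters' processing notes without a role. The aligner, counter, build, annotation and use of strand are not given in the sources used here, so reads shared by similar family members may have been split or dropped. Groups and replicate numbers came from the titles.

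Fits other than that of DESeq2 were made in edgeR 4.0.16 (R 4.3.3; limma 3.58.1). filterByExpr kept 19087 loci with 99.97% of counts, TMM factors ran from 0.943 to 1.07, and each group had its own term in a robust quasi-likelihood fit. SE is the size of the log2 fold change over the square root of F. Correlations used log2 CPM with a prior count of 2. The rule for named loci was all members with a row, with values per library where a member was called at 2-fold or more in at least 2 of the 5 arms comparisons; all 9 were. Members and lists were chosen with earlier results of these data known. Of the identifiers, 0 matched the reference of 41476 genes, so other WRKY genes and leaf markers were not listed. Alternatives were other scalings and filters, a replicate block, fits of the compared groups alone, each library left out, and DESeq2 1.42.0.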

Additional observations from a re-analysis of the deposited data

Results flagged for a closer look

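At 8 of the 9 members the difference between the labelled arms changed with day. This was by the interaction test on all libraries over the 4 days of mature leaf, where 57.0% of all tested loci were called. Without replicate 1 of mature day 10 deficit it was 9 of 9 members and 73.6% of loci. As a size, the log2 arms difference at mature day 8 minus that at mature day 4 was 3.14 for Solyc09g014990 (WRKY33), 1.41 for Solyc06g066370, 3.44 for Solyc06g068460 and 2.45 for Solyc03g116890. It was 2.81 for Solyc09g015770, 4.06 for Solyc03g095770, 2.19 for Solyc08g067360 and 3.15 for Solyc08g008280. Tested on its own with edgeR's quasi-likelihood test, this difference had an adjusted p from 4.89e-05 for Solyc06g068460 to 0.0244 for Solyc08g067360. Of all tested loci, 57.9% were called (66.7% without replicate 1). Solyc05g015850, the member not listed, had 1.58 (adjusted p = 0.0532). These 8 members were listed because the interaction was called, and that test holds this same day 8 term. The separate test is therefore not further support. The day 8 minus day 4 difference holds no library of day 10, although replicate 1 of mature day 10 deficit enters the shared spread. The interaction test does use the day 10 libraries. Dixon's test for a single outlying value was not applied, since groups held 2 or 3 libraries.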

How the results depend on the processing

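Counts of called members at mature day 8, in young leaf, for the interaction with day, and for the control arm over days and from day 5 to day 8 stayed within 1.5 times under every alternative run. Of 756 values of log2 fold change under alternatives, 686 kept direction and side of the threshold, 38 lost the call, 20 gained it and 12 changed sign. Leaving out each library in turn gave 0 to 3 called members at mature day 4, 3 to 7 at day 5 and 0 to 9 at day 10. It gave 0 to 6 for the interaction with leaf age, 1 to 7 for leaf age under control and 1 to 9 for the deficit arm over days. For steps under control it gave 1 to 8 (days 4 to 5) and 1 to 7 (days 8 to 10), and for the successive steps under deficit 0 to 4, 0 to 7 and 0 to 5. The count of 0 for the deficit step from day 5 to 8 came without deficit replicate 3 of day 5 or either deficit library of day 8, and without deficit replicate 1 or 2 of day 5 it was 1. The upper ends, except at mature day 10, came from the fit without replicate 1 of mature day 10 deficit. Where 1 library stayed in a group, it was assumed to vary like the other groups. Apart from the fit without replicate 1 of mature day 10 deficit, no share of all loci is given for the alternatives. Their counts therefore show how the calls depend on the fit and are not read as results about the members. When the fit held the compared groups alone, the counts were 3 at mature day 4, 0 at mature day 10, 7 for leaf age under control, 0 for leaf age under deficit and 0 for the deficit arm over days. For the successive steps under control they were 8 (days 4 to 5) and 6 (days 8 to 10), and under deficit 4 (days 4 to 5) and 7 (days 5 to 8). The step from day 4 to 5 under control had 1 call with no filter and 1 with a 2-fold change also required. RLE scaling, DESeq2 and a mean CPM of at least 1 each gave 1 call for the interaction with leaf age. These 3 and upper quartile scaling each gave 1 for the deficit step from day 8 to 10. Scaling moved the median of all loci by at most 0.023. Same-numbered libraries of the 2 arms were checked for pairing, and 2 of 13 pairs had a correlation of deviations over 0.1, so the numbers were not taken to pair them. With the replicate block, the deficit step from day 5 to 8 had 1 call in place of 3, and no other count changed by over 1.5 times. Changes of sign concerned values that were near 0 and not called with all libraries. Solyc08g008280 at mature day 4 was 0.0020 with upper quartile scaling, 0.0010 with only its own groups, and -0.073 to 0.067 on leaving out libraries. Its interaction with leaf age ran from -0.51 to 0.44. The value of -0.51 came without replicate 1 of mature day 10 deficit and was called (adjusted p = 0.0419, edgeR's quasi-likelihood test). Solyc09g015770 ran from -0.13 to 0.037 at day 5 and from -0.57 to 0.28 for that interaction. The causes were not tested. Depth limits Solyc08g067360 and Solyc05g015850 most, with as few as 3 and 2 counts in a library.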
